A study of Mus musculus with 30 samples.

Results

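The 10 genes described here encode chaperones and folding enzymes of the lumen of the endoplasmic reticulum (ER), the compartment in which secreted and membrane proteins are folded, and were chosen by name for that role: Hspa5, Hsp90b1, Calr, Canx, Pdia3, Pdia4, Pdia6, Hyou1, Manf and Creld2. All 10 were found among the 39179 gene identifiers counted. They were measured by RNA-seq of the whole ventral prostate (VP) of male C57/BL6 mice fed, from weaning, isocaloric normolipidic diets of the AIN-93G type whose fat came from linseed oil in the LO diet, from soybean oil in the SO diet and from lard in the PF diet. There were 6 groups of 5 mice, each diet being given for 12 weeks or for 32 weeks, and the labels name no transgene or other treatment. The comparison of PF with SO and LO mice addresses how dietary fatty acids act on the gland, and that of 32 with 12 weeks how the gland changes with longer feeding. Age, feeding time and any separate handling of the 2 time points cannot be told apart.

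Proteins that enter the ER are bound by Hspa5 (BiP), the Hsp70-type chaperone of this compartment, and by its Hsp90-type partner Hsp90b1 (GRP94), while Canx (calnexin) and Calr (calreticulin) hold glycoproteins through their sugars and the disulfide isomerases of the Pdia family form and rearrange disulfide bonds. When unfolded proteins accumulate, the membrane-bound factor ATF6 moves to the Golgi apparatus, is cut by the proteases Mbtps1 and Mbtps2 and, as a transcription factor, acts with NF-Y on ER chaperone genes through the ER stress response element (ERSE). The prostate epithelium is a secretory tissue, with a large share of its protein synthesis passing through the ER.

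The ERSE consists of CCAAT, 9 bases of any kind and CCACG, with NF-Y binding CCAAT and ATF6 binding CCACG. RefSeq promoter windows on GRCm38.p6, running from 250 bases before to 50 bases after each start site, were found for 8 of the 10 genes, all but Hyou1 and Manf. A full ERSE on either strand stood in 6 of these 8 windows, against 39 of all 32851 windows (0.119%), and with at most 1 mismatch in the 10 fixed bases it stood in 8 of 8, against 494 windows (1.5%). ATF6 targets were part of the reason for choosing these genes, so the motif counts are a description of them. The elements are shown 5′ to 3′ along the motif, to show which parts the promoters share. The 10 fixed positions are in capitals and the 9 spacer bases in lower case. Distances are counted along the strand of the gene. In Calr, Pdia4, Creld2 and the Hsp90b1 elements that begin 172 and 107 bases before the start, the motif lies on the opposite strand. In these elements CCACG is therefore farther from the start than CCAAT.
Hspa5, chr2:34772025-34772043, from 65 to 47 bases before the start: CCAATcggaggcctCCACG
Hsp90b1, chr10:86705638-86705656, from 212 to 194 bases before the start: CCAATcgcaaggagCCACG
Hsp90b1, chr10:86705598-86705616, from 172 to 154 bases before the start: CCAATcggaactgtCCAGG
Hsp90b1, chr10:86705533-86705551, from 107 to 89 bases before the start: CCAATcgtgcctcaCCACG
Calr, chr8:84847075-84847093, from 162 to 144 bases before the start: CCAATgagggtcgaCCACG
Canx, chr11:50325800-50325818, from 145 to 127 bases before the start: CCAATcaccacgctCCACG
Pdia3, chr2:121413873-121413891, from 29 to 11 bases before the start: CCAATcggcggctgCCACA
Pdia4, chr6:47813602-47813620, from 108 to 90 bases before the start: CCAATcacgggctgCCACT
Pdia6, chr12:17266491-17266509, from 98 to 80 bases before the start: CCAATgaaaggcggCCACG
Creld2, chr15:88819520-88819538, from 126 to 108 bases before the start: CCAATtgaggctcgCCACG

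The fixed bases departed from the motif, counted from 1 at its 5′ end and with the base of the motif first, at C18G in the middle Hsp90b1 element, at G19A in Pdia3 and at G19T in Pdia4. Hsp90b1 thus had 2 full elements and 1 near match, the most among the 8 promoters. The spacers differed from gene to gene. The distance from the start to the nearest motif base ran from 11 bases in Pdia3 to 194 bases in the farthest Hsp90b1 element. The starts are those of RefSeq. By the annotation of GENCODE M21 the elements of Hspa5 and Pdia3 lie inside the gene, after its first base. The Pdia4 window (chr6:47813463-47813762) lies wholly before the gene, which begins at 47813430 in GENCODE M21. The shorter ERSE-II motif, ATTGG, 1 base of any kind and CCACG, stood in 0 of the 8 windows (0.0365% of all windows). The letters TGACGTG, the core of an element bound by ATF6 and XBP1, stood in Hspa5 alone (2.01% of all windows). The bases before the start of Hsp90b1, which carries the repeated element, and of Creld2, one of the genes that DESeq2 called between PF and SO mice, are given on the strand of the gene, up to the first base that GENCODE M21 counts to the gene and with full motifs in capitals.
Hsp90b1, chr10:86705510-86705694, minus strand: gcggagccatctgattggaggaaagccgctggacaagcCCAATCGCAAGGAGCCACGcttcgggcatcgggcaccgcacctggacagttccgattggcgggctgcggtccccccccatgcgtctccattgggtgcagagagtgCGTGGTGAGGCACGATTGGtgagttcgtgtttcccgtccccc
Creld2, chr15:88819396-88819645, plus strand: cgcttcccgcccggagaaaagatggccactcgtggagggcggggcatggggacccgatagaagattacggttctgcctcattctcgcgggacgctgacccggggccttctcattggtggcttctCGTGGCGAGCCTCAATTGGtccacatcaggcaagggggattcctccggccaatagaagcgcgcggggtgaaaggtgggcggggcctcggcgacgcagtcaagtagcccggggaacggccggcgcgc

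In GENCODE M21 on GRCm38 all 10 are protein-coding genes. Hspa5 lies at chr2:34771970-34777547 (plus strand) and Hsp90b1 at chr10:86690209-86705509 (minus strand). Of the lectin chaperones, Calr is at chr8:84841850-84846934 (minus strand) and Canx at chr11:50293961-50325673 (minus strand). The disulfide isomerases Pdia3, Pdia4 and Pdia6 are at chr2:121413775-121438687 (plus strand), chr6:47796141-47813430 (minus strand) and chr12:17266545-17284770 (plus strand). Hyou1 lies at chr9:44379490-44392369 (plus strand), Manf at chr9:106838312-106891979 (minus strand) and Creld2 at chr15:88819646-88826683 (plus strand). Hsp90b1, Pdia3, Pdia6 and Manf overlap other annotated genes, and Pdia4 the microRNA gene Mir704, which had at most 1 count. With the strand setting of the counting not given, reads there could have been added to or left out of their values.

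The 30 libraries held 27590631 to 41301707 counts on genes, of which the 10 genes took 0.584% to 0.963%. Single counts ran from 2720 for Creld2 to 81964 for Hspa5, so that counting error was small beside the spread between mice. No pair of libraries of a group agreed within sampling noise. Markers of the prostate epithelium (10 genes) summed to 108043 to 336768 counts per 1000000 counts on genes (CPM, scaled between libraries with the trimmed mean of M-values, TMM) in a mouse, and the 8 seminal vesicle markers, 1 of them at 0 in every mouse, to at most 0.337 CPM. Because the whole gland was sequenced, fewer cells of a type and less RNA per cell cannot be told apart.

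Levels between genes were compared as CPM per kilobase of exon (GENCODE M21), as mean ± SD over the 30 mice. The lectin chaperone Calr had the highest level, 433.2 ± 74.1, followed by Hspa5 at 372.4 ± 80.4, and Calr was above Hspa5 in 25 of 30 mice. Pdia3, which works on glycoproteins with Calr and Canx, stood at 291.9 ± 38.6, Pdia6 at 267.8 ± 38.9 and Hsp90b1 at 235.5 ± 50.6. Canx, the membrane-bound counterpart of Calr, was lower at 103.1 ± 12.0 and below Hsp90b1 in 30 of 30 mice. Creld2, a cysteine-rich ER protein with EGF-like domains, had 90.1 ± 24.9 and the disulfide isomerase Pdia4 had 88.0 ± 15.8, with Creld2 above Pdia4 in 16 of 30 mice. Hyou1 (GRP170), which exchanges the nucleotide of Hspa5, had 53.1 ± 11.2, and Manf, a small ER protein that binds Hspa5 and is partly secreted, had 49.6 ± 9.7. Neighbours in this order lay within 1 SD of each other for 6 of 9 steps, the exceptions being Hspa5 over Pdia3, Hsp90b1 over Canx and Pdia4 over Hyou1. Among 16428 genes with a length and a level, Calr ranked 55th, Hspa5 66th, Hyou1 612th and Manf 660th. All 10 were thus among the more abundant mRNAs of the VP.

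After 32 weeks, PF mice had a higher fitted level than SO mice for all 10 genes, with Manf, Hspa5, Creld2 and Hyou1 differing most. The log2 fold changes ran from 0.10 (Canx) to 0.57 (Manf) with a median of 0.23, beside a median of -0.003 over the 16218 genes tested, of which 49.3% were higher in PF mice. None of the 10 passed an adjusted p of 0.05 in the quasi-likelihood test of edgeR, in which no gene of the whole table passed (0%), and 6 of the 10 were higher at an unadjusted p under 0.05, against 5.71% of all genes. The Wald test of DESeq2, the test used in the study, called 4 of the 10 (Hspa5, Manf, Creld2 and Hyou1) at an adjusted p under 0.05, against 0.716% of the 15218 genes it tested in either direction and 0.407% higher in PF mice. Hspa5, Manf and Hyou1 are among the genes that the study showed for ER stress, chosen on these mice, so that they are not independent evidence of its direction.

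Hspa5, the main ER chaperone, had 1191, 1209, 1101, 1305 and 1173 CPM in SO mice 1 to 5 at 32 weeks. In the PF mice it had 2047, 1779.6, 1834, 1517 and 1376 CPM, and in the LO mice 1301, 1231, 1172, 1489.8 and 1379 CPM. Every PF mouse was above every SO mouse, while LO mice 4 and 5 were above PF mouse 5. The group means were 1196 ± 73.3 (SO), 1314 ± 125 (LO) and 1711 ± 266 CPM (PF; SD, n = 5 each). PF exceeded SO by 0.54 ± 0.109 on the log2 scale (SE), a 1.45-fold difference, with an unadjusted p of 0.000187 and an adjusted p of 0.204 in edgeR. DESeq2 gave an adjusted p of 0.00138, and the call held in each of 10 DESeq2 fits that left out 1 PF or SO mouse.

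Manf, which keeps Hspa5 bound to its clients, had 123, 128, 131, 155 and 149 CPM in the SO mice. It had 222, 219.5, 210.1, 173 and 178 CPM in the PF mice and 133, 137, 155, 188 and 164 CPM in the LO mice. The lowest PF mouse was again above the highest SO mouse, and LO mouse 4 lay within the PF range. The difference between PF (201 ± 23.3 CPM) and SO (137 ± 13.9 CPM) was 0.57 ± 0.105 on the log2 scale, 1.49-fold, with an unadjusted p of 6.92e-05 and an adjusted p of 0.204 in edgeR. By its edgeR p Manf ranked 4th and Hspa5 11th of the 16218 genes. With DESeq2 its adjusted p was 0.00138 and the call held in 10 of 10 fits without 1 mouse.

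Creld2 had 91.1, 80.9, 87.5, 87.3 and 91.0 CPM in the SO mice at 32 weeks. The PF mice had 170.2, 132, 109.8, 109 and 97.1 CPM and the LO mice 102, 86.8, 94.5, 108 and 95.2 CPM. The PF mice did not overlap with the SO mice, but they were spread widely, mouse 1 being far above mouse 5. The fold change of PF over SO was 1.44 (0.52 ± 0.131 on the log2 scale), with an unadjusted p of 0.00116 and an adjusted p of 0.278 in edgeR and of 0.0302 in DESeq2. The DESeq2 call was kept in 5 of 10 fits without 1 mouse. Complete separation of PF above SO, as in Hspa5, Manf and Creld2, was found in 0.952% of 16605 genes.

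Hyou1 had 331, 279, 282, 289.9 and 285 CPM in the SO mice and 341, 314, 278, 351 and 299 CPM in the LO mice. In the PF mice it had 343, 391, 412, 415 and 307 CPM. The PF mouse with the lowest level was below SO mouse 1, so that these groups overlapped. The difference of 0.37 ± 0.0932 on the log2 scale (1.29-fold) had an unadjusted p of 0.00135 and an adjusted p of 0.278 in edgeR and of 0.0329 in DESeq2. This call was kept in 3 of 10 DESeq2 fits without 1 mouse.

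The other 6 genes had smaller values. Of the disulfide isomerases, Pdia3 ranged over 750.4 to 914 CPM in SO and 808 to 1206 CPM in PF mice, with a log2 fold change of 0.23 ± 0.107 (unadjusted p = 0.0455, edgeR). Pdia6 ranged over 893 to 974 and 909 to 1354 CPM (0.20 ± 0.114), and Pdia4 over 161 to 199 and 184 to 253 CPM (0.19 ± 0.0892). Their PF and SO mice overlapped, as they did for Hsp90b1, with 714 to 917 CPM in SO and 822 to 1103 CPM in PF mice (0.23 ± 0.102, unadjusted p = 0.0427, edgeR). The lectin chaperones had the smallest values, Calr with 0.14 ± 0.0881 and Canx with 0.10 ± 0.0785. The smallest edgeR adjusted p among these 6 genes was 0.451. PF mice 1 and 2 stood above PF mice 3 to 5 for Hsp90b1, Calr, Pdia3, Pdia4 and Pdia6, while Canx was lowest in PF mouse 1. Calr had 1333, 1448, 1123, 1093 and 1098 CPM in PF mice 1 to 5, beside an SO mean of 1126 ± 54.0 (SD). Pdia6 had 1354, 1094, 926, 916 and 909 CPM, beside an SO mean of 923 ± 32.5. In each of 10 edgeR fits without 1 PF or SO mouse, 10 of 10 genes stayed higher in PF mice. Scaled to total counts alone, which moved the median of all genes to -0.15, 8 of the 10 were higher in PF mice and Calr (-0.0017) and Canx (-0.0422) turned below 0, while the median of the 10 stayed 0.24 above that of all genes.

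**Figure D1:**
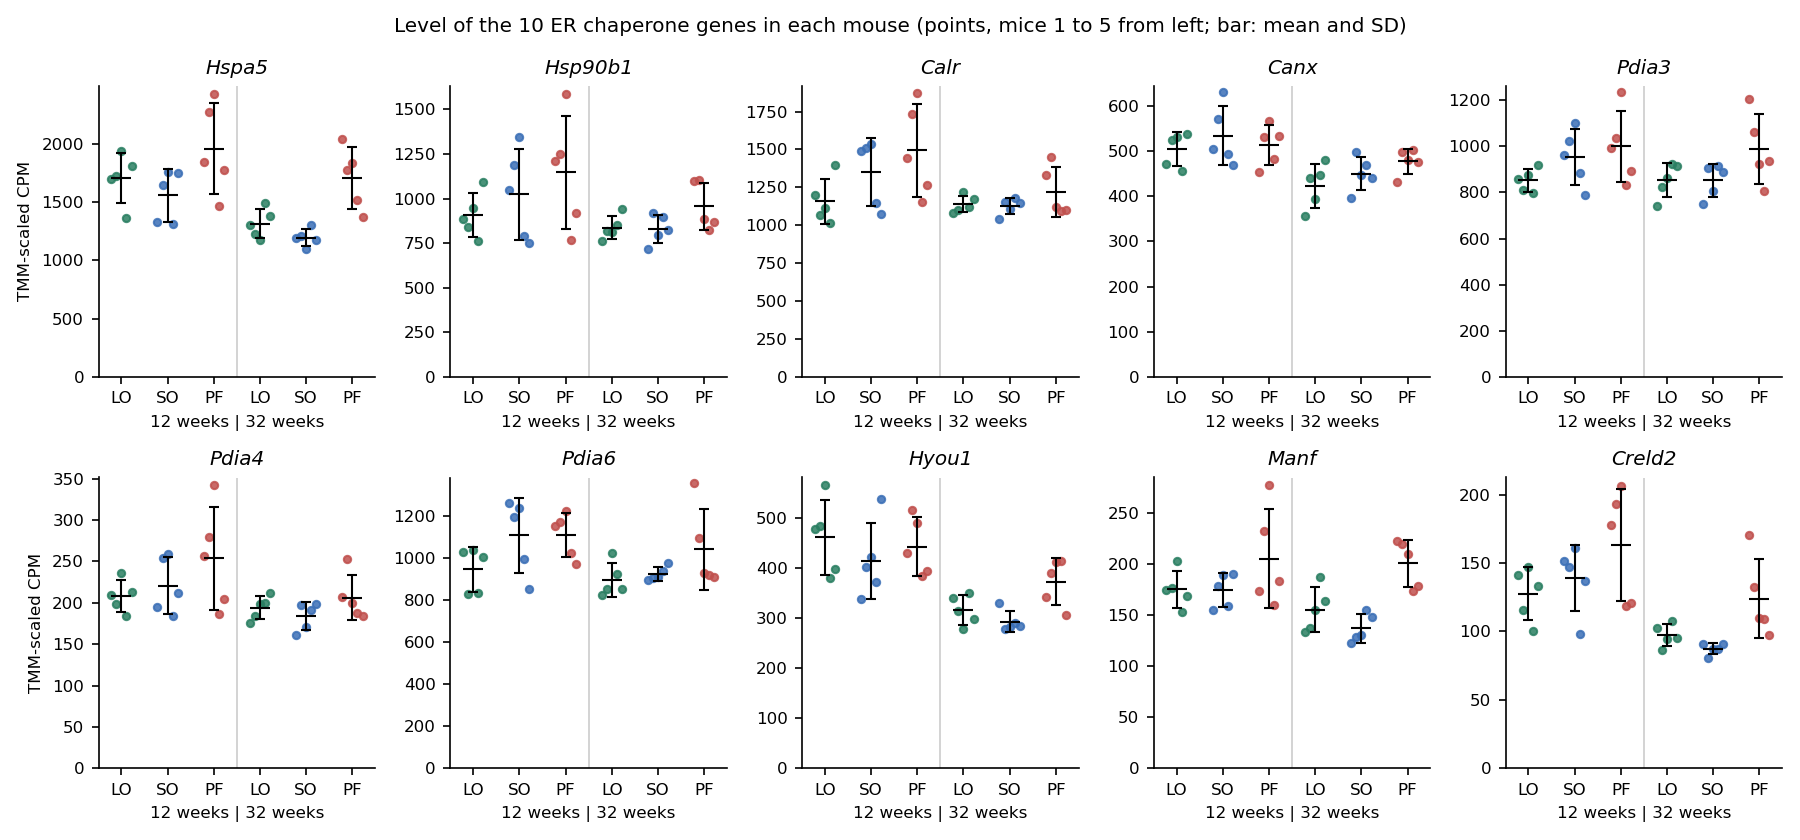
Level of each of the 10 genes (CPM, linear axis) in each of the 30 mice by diet and time, 1 point per mouse, with the group mean and SD. At 32 weeks the 5 PF mice lay above the 5 SO mice for Hspa5, Manf and Creld2, and the median coefficient of variation of the 10 genes was highest, 20.2%, in the PF mice of 12 weeks.

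Against LO mice of 32 weeks, the PF mice were also higher in all 10 genes, by 0.10 (Pdia4) to 0.40 (Hspa5) on the log2 scale with a median of 0.23, where 51.2% of all genes were higher. This comparison shares its PF mice with the one against SO mice. Hspa5 differed by 0.40 ± 0.109, with an unadjusted p of 0.00254 and an adjusted p of 0.341 in edgeR and of 0.0517 in DESeq2. Manf differed by 0.38 ± 0.105, with an unadjusted p of 0.00228 and an adjusted p of 0.341 in edgeR and of 0.0866 in DESeq2. Creld2 stood at 0.36 ± 0.131, Hyou1 at 0.25 ± 0.0931 and Canx at 0.19 ± 0.0785. None of the 10 was called by edgeR (0% of all genes) or by DESeq2 (0.419%), and 5 were higher at an unadjusted p under 0.05 in edgeR, against 4.48% of all genes. Scaled to total counts alone, the median of all genes was -0.17, that of the 10 was 0.0552, 8 of the 10 were higher in PF mice, and Calr (-0.0566) and Pdia4 (-0.0627) turned below 0. LO mice stood above SO mice in 8 of 10 genes, with log2 fold changes from -0.08 (Canx) to 0.19 (Manf), where 49.3% of genes were higher, and neither edgeR (0%) nor DESeq2 (0.0234%) called any of the 10, none of which reached an unadjusted p under 0.05 in either.

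Fitted levels of markers of other cell types differed between the groups of 32 weeks as well, but edgeR called none of these markers (0% of all genes). Of all genes 49.3% were higher in PF than SO mice and 51.2% higher in PF than LO mice. PF mice exceeded SO mice in all 5 adipocyte markers, by a median of 1.85 on the log2 scale, with summed levels of 57.0 to 727 CPM in PF and 27.6 to 224 CPM in SO mice. None of the 9 leukocyte markers was higher in PF mice, with a median of -0.41, and the epithelial markers summed to 126037 to 299213 CPM in PF and 145453 to 172529 CPM in SO mice. Plasma cells are secretory cells with much ER, and 7 of their 9 markers were higher in PF than SO mice (median 0.43) and 1 of 9 higher in PF than LO mice (median -0.52). Their summed markers gave 2514 to 7722 CPM in PF, 575 to 6037 CPM in SO and 1023 to 12083 CPM in LO mice. The part of these cells in the higher levels of Hspa5, Manf, Creld2 and Hyou1 was not tested.

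**Figure D2:**
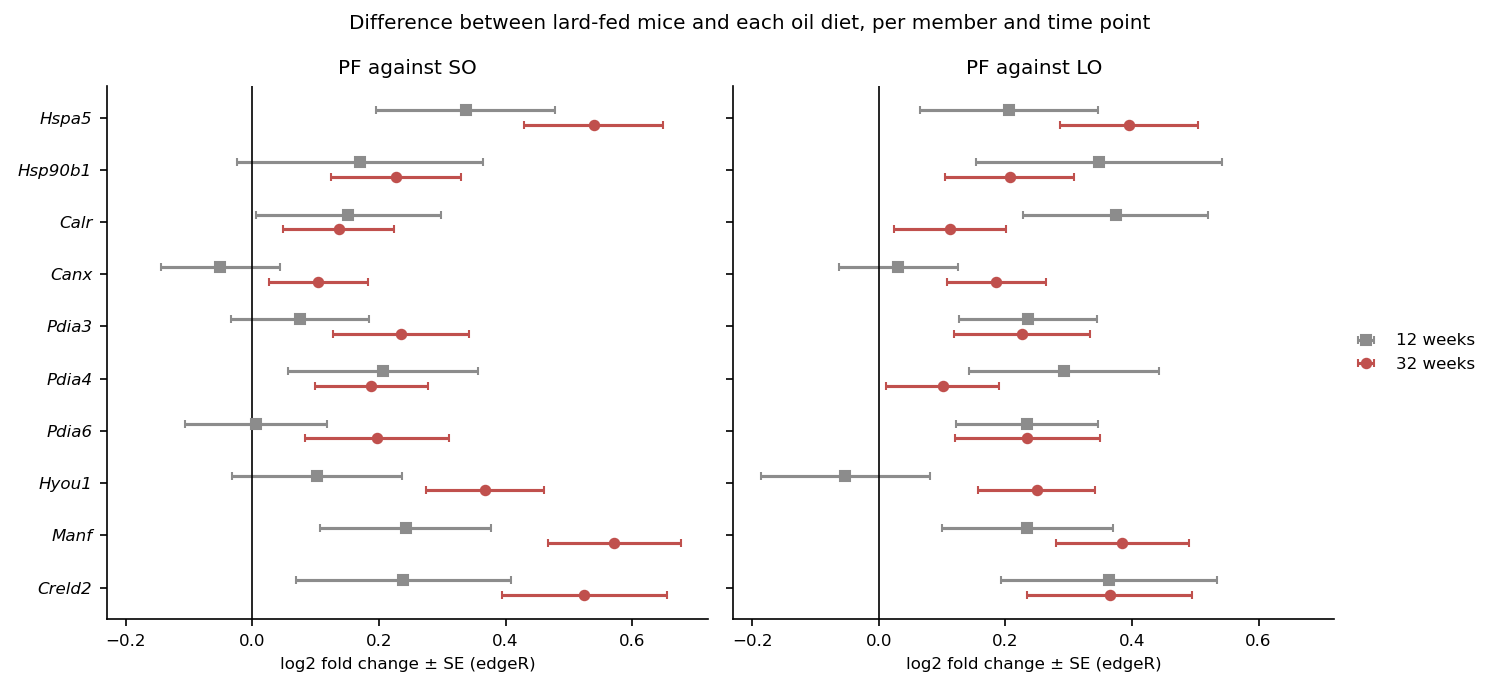
Log2 fold change (edgeR, TMM scaling) of each gene for PF against SO mice (left) and PF against LO mice (right), grey squares for 12 weeks and red circles for 32 weeks, with bars of 1 SE. At 32 weeks 10 of 10 genes were above 0 in both panels (8 of 10 with total counts alone), with Hspa5 and Manf highest against both diets.

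After 12 weeks, PF mice had a higher fitted level than SO mice for 9 of the 10 genes, Canx being the exception, with a median log2 fold change of 0.16 beside 44.8% of all genes higher. Hspa5 had 1849, 2279, 2433, 1465 and 1778 CPM in the PF mice, 1327, 1645, 1761, 1310.4 and 1755 CPM in the SO mice and 1696, 1729, 1943, 1361 and 1814 CPM in the LO mice. The groups overlapped, and PF mouse 4 was below most SO and LO mice. The difference of PF from SO was 0.34 ± 0.141 (unadjusted p = 0.0302, adjusted p = 0.521, edgeR) and was the only one of the 10 at an unadjusted p under 0.05, where 6.14% of all genes were higher at that level. No gene of the 10 was called by edgeR (0%) or DESeq2 (1.32% of all genes).

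Against LO mice, 9 of the 10 genes were higher in PF mice at 12 weeks, Hyou1 being the exception, with a median of 0.24 beside 49.9% of all genes higher. Calr was 0.37 ± 0.146 higher (unadjusted p = 0.0212, edgeR), Creld2 0.36 ± 0.170 (unadjusted p = 0.0494, edgeR) and Pdia3 0.24 ± 0.109 (unadjusted p = 0.0469, edgeR). These were the 3 genes at an unadjusted p under 0.05, against 4.31% of all genes, and neither edgeR (0%) nor DESeq2 (0.522%) called any of the 10. LO against SO mice gave 3 of 10 higher (50.6% of all genes) with a median of -0.11 and no call by edgeR or DESeq2 (0% in both). At an unadjusted p under 0.05 edgeR had 0 of the 10, against 4.28% of all genes. In DESeq2 1 of the 10 was below 0.05, against 3.18% of all genes, namely Pdia6, lower in LO mice (unadjusted p = 0.0485).

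The 12-week PF mice were spread among themselves. For 8 of the 10 genes PF mice 1, 2 and 3 were all above PF mice 4 and 5, mouse 3 being highest in 9 genes and mouse 4 lowest in 8. Mice 1 to 3 were likewise above mice 4 and 5 for 7 genes in PF mice of 32 weeks and 6 in SO mice of 12 weeks. The other groups had 2 (LO, 12 weeks), 0 (LO, 32 weeks) and 0 (SO, 32 weeks) such genes. In the PF mice of 12 weeks Calr, for example, had 1441, 1731, 1875, 1153 and 1267 CPM, and Hsp90b1 had 1212, 1250.4, 1587, 766 and 919 CPM. Creld2 had 178, 193, 206, 118 and 121 CPM and Manf 174, 232, 277, 159.5 and 184 CPM. The summed plasma cell markers of these PF mice were 804, 4095, 6753, 298 and 406 CPM, so that mice 1 to 3 had the highest values there too, against 419 to 550.0 CPM in SO mice and 267 to 844 CPM in LO mice. By fitted level PF mice exceeded SO mice in all 8 plasma cell markers tested, by a median of 2.54 on the log2 scale. They did so in all 9 leukocyte markers, by a median of 1.01. None of these markers was called by edgeR (0% of all genes), and 44.8% of all genes were higher. Without PF mice 1, 2 and 3, left out after these values were seen, 1 of 10 genes was higher in PF than in SO mice (median -0.1455) and 4 of 10 were higher than in LO mice (median -0.0515). These 3 mice were also the highest PF mice for 8 of the 10 genes, so that leaving them out had to lower the PF values of these genes. The part of plasma cells in the 12-week differences was not tested.

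The co-chaperones and KDEL receptors are listed further on. For PF against SO mice of 12 weeks, 44.8% of all genes were higher. Of the lists, 13 of 30 co-chaperones and foldases and 0 of 3 KDEL receptors had a higher fitted level, with medians of -0.0041 and -0.018. Serpinh1, a collagen chaperone, had the highest value of the former at 0.29. With total counts alone 22 of 30 and 3 of 3 were above 0, with medians of 0.026 and 0.015, so that the direction of these lists turned with the scaling. For PF against LO mice 20 of 30 and 1 of 3 had a higher fitted level, and 8 of the 30 were higher and 4 lower at an unadjusted p under 0.05 in edgeR, from Dnajb9 (-0.53) to Serpinh1 (0.62). Of all genes 49.9% were higher there. An unadjusted p under 0.05 in edgeR was found for 9.24% in either direction and for 4.31% higher.

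From 12 to 32 weeks, the levels of the 10 genes were lower in most comparisons, and Hyou1 in LO and SO mice and Creld2 in SO mice passed the test of edgeR. Hyou1 in LO mice went from 479, 485, 567, 380.2 and 399.6 CPM at 12 weeks to 341, 314, 278, 351 and 299 CPM at 32 weeks. The 2 time points did not overlap, which held for 2.26% of 16605 genes. Hyou1 fell on the log2 scale (-0.54 ± 0.119 with its SE), at an edgeR adjusted p of 0.0156, where 448 genes were called in all (2.70%) and 159 of them lower (0.958%). DESeq2 also called Hyou1 alone among the 10 in LO mice (adjusted p = 0.00144), with 2.03% of all genes lower.

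In SO mice Hyou1 went from 338, 403, 423, 373 and 539 CPM to 331, 279, 282, 289.9 and 285 CPM, with every mouse of 32 weeks below every mouse of 12 weeks. The log2 fold change was -0.50 ± 0.119 with an edgeR adjusted p of 0.0122. Creld2 in SO mice had 152, 147, 161, 98.3 and 137 CPM at 12 weeks against the 80.9 to 91.1 CPM of 32 weeks, -0.67 ± 0.155 on the log2 scale (adjusted p = 0.0113, edgeR). These calls stood beside 1073 called genes in SO mice (6.46%), of which 202 were lower (1.22%). Hspa5 and Manf of SO mice were also without overlap between time points, a pattern of 2.31% of genes, with log2 fold changes of -0.38 ± 0.125 and -0.35 ± 0.124 and edgeR adjusted p values of 0.0641 and 0.0912. DESeq2 called Hspa5 (adjusted p = 0.0346), Hyou1 and Creld2 in SO mice, where 1.97% of all genes were lower.

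In PF mice no gene of the 10 was called between time points by edgeR (0.0301% of all genes) or DESeq2 (0.291%), with 4 at an unadjusted p under 0.05 in each, all lower, against 5.23% of all genes lower at that level in edgeR and 3.32% in DESeq2. Hspa5 stood at -0.20 ± 0.125, Creld2 at -0.40 ± 0.155, Hyou1 at -0.25 ± 0.118 and Manf at -0.03 ± 0.123 on the log2 scale. All 10 were lower at 32 weeks in PF and in SO mice, and 9 of 10 in LO mice, in which Pdia3 had 0.0029. Of all genes 49.3%, 50.8% and 52.2% were lower in these diets. The medians of the 10 were -0.28 in SO, -0.14 in LO and -0.22 in PF mice.

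The scaling bears on these time differences. Scaled to total counts alone, the median of all genes was 0.16 in LO and 0.19 in SO mice, 1 of 10 genes was higher at 32 weeks in SO, 5 of 10 in LO and 2 of 10 in PF mice, and none of the 10 was called. Hyou1 was then -0.3671 in LO mice (adjusted p = 0.0523, edgeR) and -0.3007 in SO mice (adjusted p = 0.0779), and Creld2 -0.4717 in SO mice (adjusted p = 0.0565). Relative to all genes, the median of the 10 was 0.13 lower in LO and 0.28 lower in SO mice under that scaling. The edgeR call of Hyou1 in LO mice was lost without LO mouse 2 or 3 of 12 weeks (adjusted p = 0.0567 and 0.073) or LO mouse 3 of 32 weeks (adjusted p = 0.0684), while both calls in SO mice held in 10 of 10 such fits.

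Markers of other cell types differed between the time points too. All 9 leukocyte markers were higher at 32 weeks in SO mice (median 1.85, 7 of them called by edgeR) and in LO mice (median 0.86, none called), and 8 of 9 plasma cell markers were higher in each (medians 2.72 and 2.74, with 6 called higher in each and 1 called lower in SO mice). With total counts alone edgeR called 9 leukocyte markers higher in SO and 4 in LO mice, and 8 (SO) and 7 (LO) plasma cell markers. Of 16605 genes it called 871 higher in SO and 289 in LO mice under TMM scaling, and 2770 and 1323 with total counts alone. The summed epithelial markers were 226831 to 321828 CPM at 12 weeks and 145453 to 172529 CPM at 32 weeks in SO mice, and 204796 to 327081 and 108043 to 200601 CPM in LO mice, without overlap. These sums weigh the most abundant markers. Of the 10 single markers 4 were higher at 32 weeks in SO and 4 in LO mice (medians -0.104 and -0.039), and Sbp alone was called, lower in both. Scaled to total counts, 6 (SO) and 7 (LO) of 10 were higher (medians 0.091 and 0.13), with Sbp called lower in both and Cdh1 called higher in SO mice. In PF mice the sums were 180207 to 336768 and 126037 to 299213 CPM. The part of these shifts in the lower levels of Hyou1 and Creld2 was not tested.

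**Figure D3:**
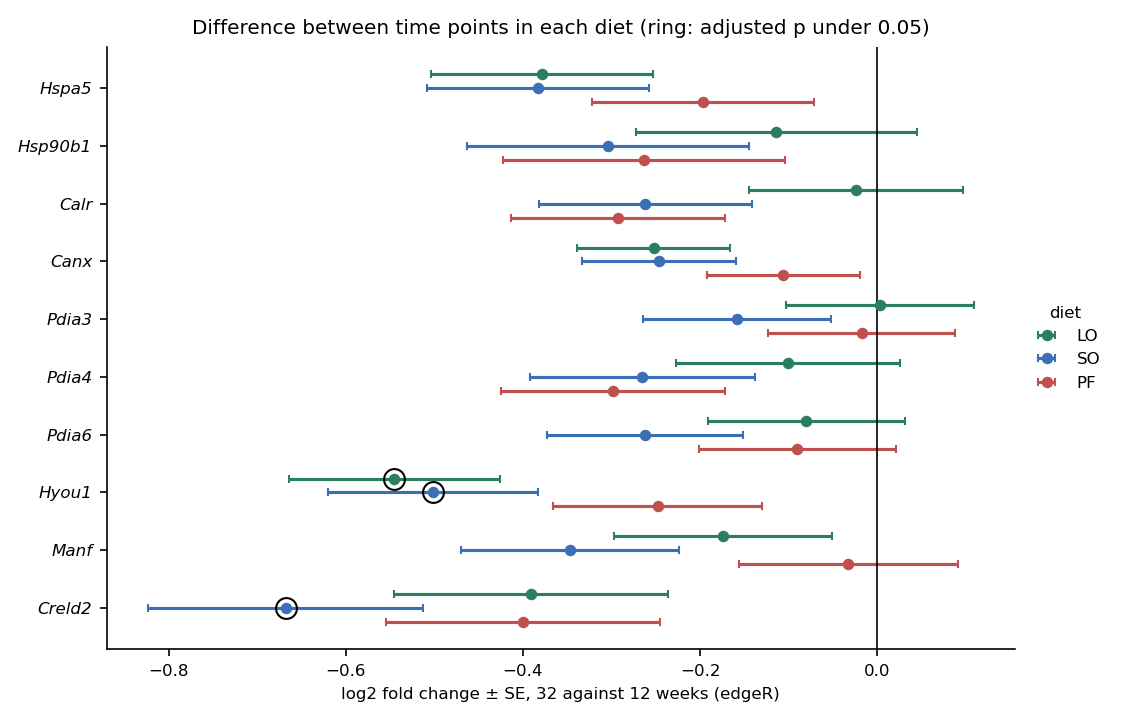
Log2 fold change (edgeR, TMM scaling) of each gene from 12 to 32 weeks within LO, SO and PF mice, with bars of 1 SE and rings around values with an adjusted p under 0.05. Under this scaling Pdia3 in LO mice is the only value above 0 (with total counts alone 5, 1 and 2 genes were above 0 in LO, SO and PF mice), with Creld2 and Hyou1 in SO mice and Hyou1 in LO mice farthest down.

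The change of a diet difference between the time points was tested directly, and no gene of the 10 was called by edgeR (0% of all genes in each of 3 tests) or DESeq2 (0.246% for PF against SO, 0.0662% for PF against LO and 0% for LO against SO). None of the 10 had an unadjusted p under 0.05 in either, where edgeR gave 9.49%, 7.79% and 3.33% of all genes in these tests. Manf had the smallest p, the difference of PF from SO being 0.31 ± 0.174 larger at 32 than at 12 weeks on the log2 scale (unadjusted p = 0.0826, adjusted p = 0.606, edgeR). Hyou1 came next, for PF against LO, with 0.30 ± 0.167 (unadjusted p = 0.087, edgeR). A difference that was larger at 32 weeks was therefore not shown for any of the 10 genes.

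Most of the 10 genes varied together from mouse to mouse. After the group mean was taken off the log2 CPM, Pearson's r over the 30 mice had a median of 0.615 over the 45 pairs, with 30 pairs over 0.5 and 3 below 0. These values are a description over mice that share group, depth and tissue makeup, and no r of other gene pairs was set beside them. Hsp90b1 and Calr had the highest r (0.929), followed by Hsp90b1 with Pdia3 (0.904) and with Pdia4 (0.868). Among Hsp90b1, Calr, Pdia3, Pdia4 and Pdia6 r ran from 0.535 to 0.929, and Creld2 had an r of 0.676 to 0.748 with each of these 5 genes. Hspa5 and Manf, which bind each other in the ER, had an r of 0.849.

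Hyou1 stood farthest apart. Its r with Hsp90b1, Calr, Canx, Pdia3 and Pdia6 lay between -0.130 and 0.0753, and its highest r was with Hspa5 (0.656). Canx had an r of 0.112 with Creld2, 0.161 with Pdia6 and 0.374 with Hspa5, but of 0.551 with Pdia4 and 0.582 with Hsp90b1. The spread within groups also differed, the median coefficient of variation of the 10 genes being 20.2% in PF and 15.8% in SO mice of 12 weeks, against 13.7% in PF and 7.74% in SO mice of 32 weeks. In LO mice it was 12.0% at 12 weeks and 8.91% at 32 weeks.

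**Figure D4:**
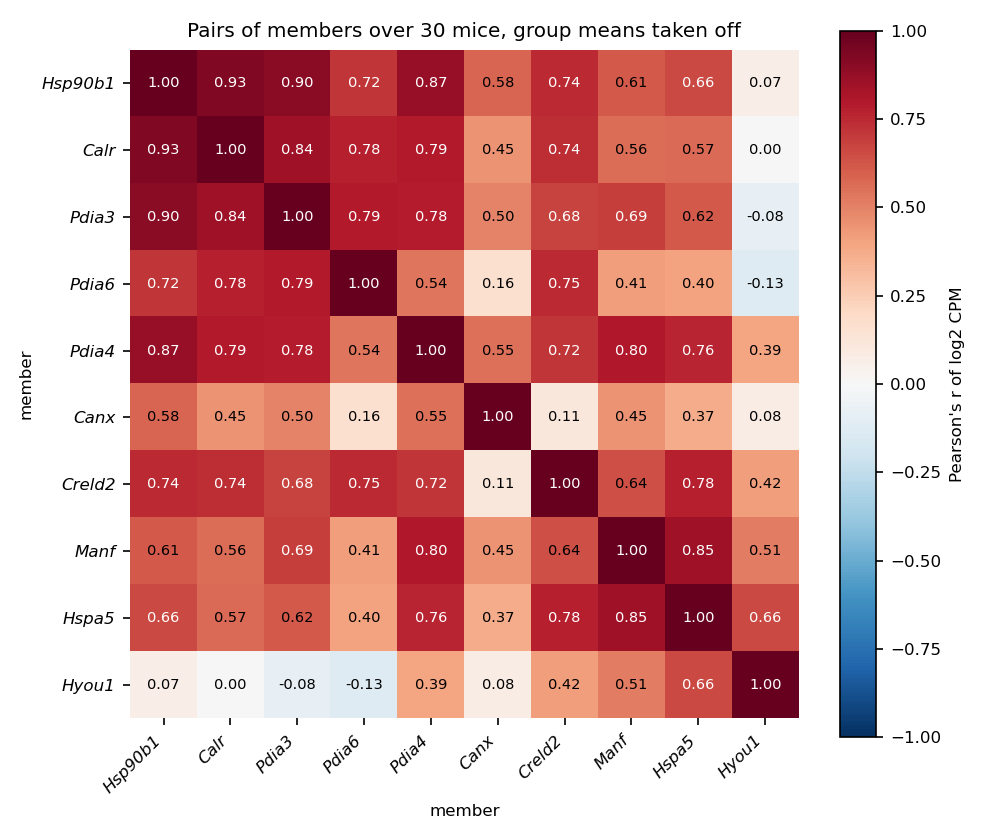
Pearson's r between each pair of the 10 genes over the 30 mice, computed on log2 CPM after the group mean was taken off. Hsp90b1 with Calr has the highest value (0.929), and the row of Hyou1 is near 0 with 5 of the other genes.

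The genes outside the 10 whose levels were most like their mean, after the same centring, were Dnajb11 (r = 0.859) and Dnajc3 (r = 0.793), of 16595 genes. Both encode J-domain co-chaperones that bring clients to Hspa5. In the RefSeq windows Dnajb11 held an ERSE-II and Dnajc3 a full ERSE, as a match of letters only. Next came Platr25 (0.752), Zfp273 (0.739), Far1 (0.685), Gm9800 (0.677), Fbxl12os (0.665), Selenok (0.616), P4ha1 (0.615) and Fgfbp3 (0.608), of which Selenok encodes an ER membrane protein and P4ha1 a prolyl hydroxylase of the ER. Of the listed genes, Hsp90ab1 (r = 0.602, 12th) and Hspe1 (r = 0.587, 18th), chaperones of cytosol and mitochondria, followed Dnajb11 and Dnajc3. Atf6 itself had an r of -0.243, Atf4 of -0.331 and Herpud1 of -0.282 with the mean of the 10. Other genes of ER-associated degradation, the list of Herpud1, went the other way, as did Edem1 (0.570), Derl3 (0.391) and Vcp (0.360).

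Within groups, summed marker lists had these r with the mean of the 10 genes over the 30 mice. Above 0 were plasma cells (0.317), endothelium (0.309), leukocytes (0.194), fibroblasts (0.151) and adipocytes (0.125). Below 0 were basal cells (-0.230), the prostate epithelium (-0.221), smooth muscle (-0.186) and the seminal vesicle markers (-0.116).

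Other genes of the folding pathway were described from lists chosen by function. No gene of any list was called by edgeR for PF against SO mice at 32 weeks, so that the counts are of fitted values under TMM scaling. Of all genes 49.3% were higher in PF mice, 5.71% at an unadjusted p under 0.05 in edgeR, and DESeq2 called 0.407% higher. Of 30 co-chaperones and foldases 28 were higher in PF mice, 14 at an unadjusted p under 0.05, with a median of 0.19. Dnajb9, a J-domain co-chaperone of Hspa5, was highest with 0.52 ± 0.130 and was called by DESeq2 (adjusted p = 0.0329). Serpinh1 was lowest with -0.0014.

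The 3 KDEL receptors return ER proteins such as Hspa5 from the Golgi apparatus. All 3 were higher in PF mice at an unadjusted p under 0.05 in edgeR, against 5.71% of all genes. Kdelr1 had 0.21 ± 0.0593, Kdelr2 0.34 ± 0.0989 and Kdelr3 0.46 ± 0.0976 on the log2 scale, and DESeq2 called Kdelr1 (adjusted p = 0.036) and Kdelr3 (adjusted p = 0.0157). All 14 genes of ER-associated degradation, which removes misfolded proteins, were higher, beside 49.3% of all genes. Of these 14, 7 had an unadjusted p under 0.05 in edgeR (5.71% of all genes). Their values ran from Edem3 (0.0038) to Herpud1 (0.43 ± 0.112). DESeq2 called Herpud1 (adjusted p = 0.0381) and Derl1, a channel component (0.23 ± 0.0474 in edgeR, adjusted p = 3.70e-06 in DESeq2). It called 0.407% of all genes higher.

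The genes of ATF6, its processing and the other ER stress sensors were less uniform. Of these, 9 of 14 were higher, beside 49.3% of all genes, with a median of 0.05. Nfya, a subunit of NF-Y, had -0.25 ± 0.0811 and Atf4, a transcription factor of the PERK branch, 0.30 ± 0.0848. Atf6 had 0.11 ± 0.140, and Xbp1, the transcription factor spliced by IRE1, had 0.24 ± 0.0622 and was called by DESeq2 (adjusted p = 0.0302). In the calnexin and calreticulin cycle 6 of 8 genes were higher with a median of 0.05, from Uggt2 (-0.10) to Lman1 (0.20). Of the 17 chaperones of cytosol and mitochondria listed for comparison, 16 were higher in PF mice with a median of 0.17, from Dnajb1 (-0.04) to Hspe1 (0.26).

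With total counts alone fewer of these genes were higher in PF than SO mice, namely 3 of 3 KDEL receptors, 18 of 30 co-chaperones, 9 of 14 degradation genes, 2 of 8 genes of the calnexin cycle, 4 of 14 genes of ATF6 and the sensors and 11 of 17 chaperones of cytosol and mitochondria. Relative to the median of all genes under that scaling, the list medians were 0.34, 0.19, 0.22, 0.06, 0.04 and 0.17 higher.

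Against LO mice of 32 weeks, 27 of 30 co-chaperones (median 0.18), 3 of 3 KDEL receptors (median 0.21), 14 of 14 degradation genes (median 0.19) and 11 of 17 cytosolic and mitochondrial chaperones (median 0.04) were higher in PF mice. Of all genes 51.2% were higher, and 0.419% were called by DESeq2 in either direction. DESeq2 called Ero1b, an oxidase of the disulfide isomerases (0.48 ± 0.0802 in edgeR, adjusted p = 0.000159 in DESeq2), Dnajc3 (adjusted p = 0.00295), Derl1 (adjusted p = 1.77e-05) and Derl2 (adjusted p = 0.0278). With total counts alone these counts were 15 of 30, 2 of 3, 8 of 14 and 1 of 17, and the medians relative to all genes were 0.17, 0.2, 0.19 and 0.03.

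**Figure D5:**
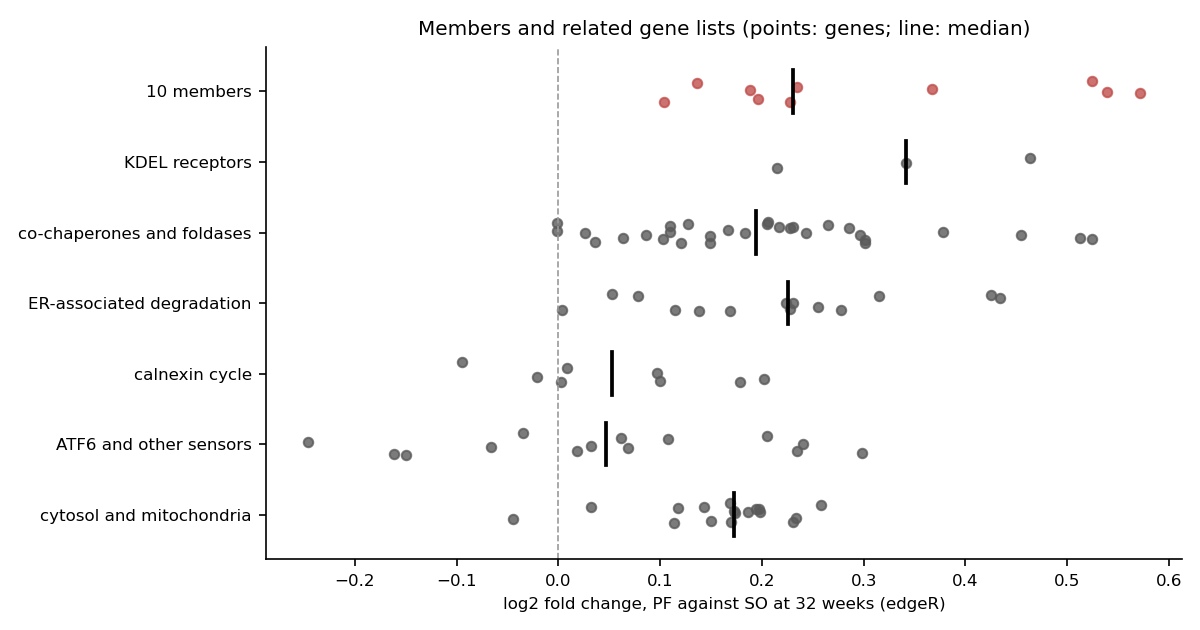
Log2 fold change of every gene in the 10 and in the 6 lists of related genes for PF against SO mice at 32 weeks, 1 point per gene, with the median of each list. Under TMM scaling the 10 genes, KDEL receptors, co-chaperones and degradation genes lie mostly above 0 (with total counts alone 8 of 10, 3 of 3, 18 of 30 and 9 of 14), and the ATF6 and sensor genes lie on both sides.

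Between time points edgeR called 1.22% of all genes lower in SO and 0.958% lower in LO mice. Several of the related genes passed this test, all of them lower at 32 weeks. In SO mice these were the 3 KDEL receptors, 4 of 30 co-chaperones and foldases (Dnajc3, P4hb, Pdia5 and Ppib), the degradation genes Derl1 and Derl3, and Lman1. Kdelr3, for example, had -0.49 ± 0.129 (adjusted p = 0.0231, edgeR) and Derl3 -0.70 ± 0.205 (adjusted p = 0.0384, edgeR). In LO mice they were Dnajc3, Hspa13, Lman1, the stress kinase gene Eif2ak3, Ddit3 (CHOP), Herpud1, Syvn1 and Edem3. Ddit3, a transcription factor made under prolonged ER stress, had -1.77 ± 0.419 (adjusted p = 0.0228, edgeR) and Herpud1 -0.78 ± 0.152 (adjusted p = 0.0123, edgeR). In PF mice no gene of the lists was called (0.0301% of all genes). With total counts alone, of all these calls Ddit3 and Herpud1 in LO mice were kept, and in that scaling Hspa8 in LO mice and Txndc12, Ero1a, Tmx1, Nfya, Dnaja1 and Dnajb1 in SO mice were called higher. Of 16605 genes, 1323 in LO and 2770 in SO mice were called higher in that scaling. Whether the diets differ in these changes was not tested for the lists.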

How the data were processed

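Ventral prostates (VP) of male C57/BL6 mice were collected by the authors after 12 or 32 weeks of LO, SO or PF diet (n = 5 per group), and polyadenylated RNA was sequenced from stranded libraries. According to the methods and the submitters' processing notes, reads were aligned to GRCm38.p6 with TopHat2 and counted with HTSeq, versions and strand setting not being given in the sources used here. The deposited files hold raw counts per gene for each mouse, with no normalization by the authors. Counts of Hsp90b1, Pdia3, Pdia6 and Manf could be touched by annotated genes that overlap them, the most counted of which was Atp6v1c2 beside Pdia6 (3247 to 9023 counts). Lines for reads outside genes (6.67% to 12.2% for no feature) were left out of totals.

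Identifiers were matched to GENCODE M21 symbols (37693 of 39179). The main test was the two-sided quasi-likelihood F test of edgeR 4.0.16 (R 4.3.3) with TMM scaling (factors 0.889 to 1.184), filterByExpr and Benjamini-Hochberg adjustment over all genes (15873 at 12 weeks, 16218 at 32 weeks, 16605 over 30 mice), calling genes at an adjusted p under 0.05. Diets were fitted over the 15 mice of a time point, and time and its interaction over all 30. All 10 genes passed the filter. CPM use TMM factors and log2 CPM a prior count of 2. DESeq2 1.42.0 (Wald test, the test of the study), other scalings, no filter, a robust fit, a replicate block and fits with mice left out were the alternatives. The code was tested on simulated data. Promoter motifs were searched on both strands of RefSeq windows, where motifs may overlap. The genes, lists and tests were chosen with earlier results of these data known. The genes named from the lists were those with the largest and smallest log2 fold change between PF and SO mice at 32 weeks, those called in any comparison, and the 10 most like the mean of the members, and Dnajb11, Atf6 and a few others were named for their role or r after their values were seen. Libraries were taken as separate mice, and the p-values judge differences between groups against the fitted spread between mice.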

Additional observations from a re-analysis of the deposited data

Results flagged for a closer look

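Hyou1 in SO mouse 1 of 32 weeks had 330.6 CPM, while the other 4 SO mice had 279.5 to 289.9 CPM. Its gap to the nearest mouse was 0.797 of the range of the group, above the 0.71 that Dixon's test sets for 5 mice. It was the only one of 60 groups of 5 mice, 10 genes by 6 groups, that passed this limit, and chance alone gives about 1 such group in 20. This mouse is the one that made the SO and PF mice overlap for Hyou1.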

How the results depend on the processing

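No edgeR alternative (other size factors, total counts, no filter, robust fit, replicate block, mice left out) called any of the 10 genes in a diet comparison. DESeq2 called 4 genes for PF against SO mice at 32 weeks, 2 (Hspa5 and Manf) with LO mouse 1, SO mouse 2 and PF mouse 2 left out together, 4 on mice 1 to 4 of each diet (chosen after seeing the data), and 2 to 4 with 1 PF or SO mouse left out. On mice 1 to 4 DESeq2 called 1 gene for PF against LO mice. With all mice DESeq2 called 0.716% of all genes for PF against SO mice. For its fits with mice left out the share of all genes called is not given here, so those counts have no background beside them. Between time points, total counts alone gave 0 calls in LO and 0 in SO mice, where 1375 and 2802 of all 16605 genes were called. Leaving out 1 mouse gave 0 to 1 in LO mice, beside 47 to 1043 called genes in all. Leaving out PF mice 1 to 3 of 12 weeks gave 1 (SO) and 4 (LO) of 10 genes higher, with medians of -0.1455 and -0.0515, and these mice were the highest PF mice for 8 of the 10 genes. The median of PF against LO mice at 32 weeks was 0.0552 with total counts alone. The fits of related lists with total counts alone and without PF mice 1 to 3 were also chosen after seeing the data. The cause of these differences was not tested.

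Replicate numbers were shared by the groups. In their deviations from the group mean, mice with the same number had a mean r of 0.0559 at 12 weeks and 0.132 at 32 weeks. The lowest r of such pairs were -0.183 and -0.403. Pairs with different numbers had lower means, -0.0137 and -0.0291. The labels do not say whether a number links mice of different groups, and these values cannot decide it. The main fits used the numbers only to name mice. With a replicate block, edgeR called 2 genes over time in LO mice (Hyou1 and Canx, adjusted p = 0.0459 for Canx), 3 in SO mice (with Canx, adjusted p = 0.0378), against 1.83% and 2.02% of all genes called lower, and 0 in PF mice, in every diet comparison and in every change of a diet difference.

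Of 570 diet values of single genes under the settings chosen with the design, 554 kept direction and side of the threshold, 6 passed it under DESeq2 and 10 changed sign. With total counts alone these were Calr (-0.0017) and Canx (-0.0422) for PF against SO and Calr (-0.0566) and Pdia4 (-0.0627) for PF against LO at 32 weeks. With the 3 mice left out together Pdia4 became -0.0211 (DESeq2 -0.0082) for PF against LO and Canx 0.0111 (DESeq2 0.0085) for LO against SO, and on mice 1 to 4 Hsp90b1 became -0.0296 and Pdia3 -0.0074 for LO against SO. Of 600 fits without 1 mouse, 20 changed sign. For PF against SO at 12 weeks the values ran over -0.0976 to 0.0223 (Canx), -0.0169 to 0.1399 (Pdia3) and -0.0793 to 0.0551 (Pdia6), and for PF against LO over -0.01 to 0.076 (Canx) and -0.1179 to 0.0341 (Hyou1). For LO against SO they ran over -0.0501 to 0.0488 (Manf, 12 weeks), and at 32 weeks over -0.0271 to 0.0604 (Hsp90b1), -0.0018 to 0.0377 (Calr) and -0.0307 to 0.0467 (Pdia3). The least count of any of the 10 genes was 2720, so counting error was small beside the spread between mice.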

Other observations

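At 12 weeks, 3 genes of the ER stress response outside the 10 exceeded the level of SO mice in LO mice at an unadjusted p under 0.05 in edgeR, and were picked after their values were seen. Ddit3 had 1.67 ± 0.525 (unadjusted p = 0.00606, edgeR), Dnajb9 0.46 ± 0.133 (unadjusted p = 0.00327) and Herpud1 0.44 ± 0.170 (unadjusted p = 0.0199) on the log2 scale. Of all genes 4.28% had an unadjusted p under 0.05 there. The adjusted p of the 3 genes was 0.999, and 3 of the 10 chaperone genes had a higher fitted level in LO mice. Of the 30 co-chaperones and foldases 3 were higher and 5 lower at an unadjusted p under 0.05 in edgeR, of 14 stress sensor genes 3 were higher and 1 lower, and of 14 degradation genes 1 was higher. For PF against LO mice of 12 weeks DESeq2 called Dnajb9 (-0.53, adjusted p = 0.045) and Hspa13 (-0.32, adjusted p = 0.0424), both lower in PF mice, a comparison that shares its LO mice with the one above. DESeq2 called 0.522% of all genes there.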
